A study of Mus musculus with 6 samples.

Results

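The nuclear genes that build the mitochondrial respiratory chain and ATP synthase were followed in retinas of newborn mice with and without cyclin D1. Members were chosen by gene symbol alone: names that start with Nduf, Uqcr, Sdha, Sdhb, Sdhc, Sdhd or Atp5, or with Cox4 to Cox8 followed by a letter or digit. The rule found 94 of 18193 named genes, each read by its probe set with the highest mean signal. Most encode subunits or their isoforms, and 12 (Ndufaf and Sdhaf genes) encode assembly factors, which help to put complexes I and II together and are not part of the finished complexes. Subunits encoded in mitochondrial DNA do not carry these symbols.

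The study compared retinas of wildtype newborns with retinas of Cyclin D1 -/- newborns, both taken at birth, to ask how genes respond when cyclin D1 (Ccnd1), a partner of the kinases that start the cell division cycle, is missing. Each genotype had 3 numbered pools of retinas, with 1 Affymetrix expression array per pool. The labels give neither the number of animals in a pool, nor the litters, strain, sex or knockout allele, so each p-value is set against the scatter of the numbered pools, part of which may be technical. Levels are log2 of the normalised signal plus 16 and differences are knockout minus wildtype on that scale, on which changes of dim genes come out too small.

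The respiratory chain sits in the inner mitochondrial membrane. Complexes I and II take electrons from NADH and succinate and pass them to coenzyme Q, complex III passes them on to cytochrome c, and complex IV (cytochrome c oxidase) hands them to oxygen. Complexes I, III and IV pump protons, and ATP synthase, often called complex V, makes ATP as the protons flow back. The mature retina is known for its high demand for ATP, and several complex IV subunits exist as isoforms made in particular tissues or under particular conditions.

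Of the 94 members, 86 were bright enough to be tested and 8 were not (Ndufb4, Cox6a2, Cox7a1, Cox7b2, Cox7c, Cox8b, Ndufaf6 and Sdhaf3). Brightness depends on the probe set as well as on the RNA, so a dim reading does not show that a gene is little expressed. The tested members were 33 of 34 for complex I, 4 of 4 for complex II, 8 of 8 for complex III, 14 of 19 for complex IV, 17 of 17 for complex V and 10 of 12 assembly factors. Ndufa4 and its relative Ndufa4l2, named after complex I, were counted with complex IV, where the Ndufa4 protein is now known to belong.

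Facts of the whole series bear on these values in a few ways. Ccnd1 lay between 12.60 and 12.66 in wildtype pools and between 8.37 and 8.60 in knockout pools, so every pool matched its label (limma, log2 difference -4.14, SE 0.079, adjusted p = 2.33e-07). The arrays were split into 2 sets of 3 by rank of their hybridisation controls. Mean log2 control signal was 10.15 in wildtype pool 3 and 9.82 and 9.97 in knockout pools 1 and 2. It was 9.66 in wildtype pools 1 and 2 and 9.53 in knockout pool 3, so no clear gap parts the sets. A comparison inside either set has just 1 array for one of the genotypes. Pools 1 and 2 of each genotype were closer to each other (SD of the log2 difference over all genes 0.22 in wildtype and 0.21 in knockout) than any other pair (0.28 to 0.52), and whether they share tissue is not known. Retinal markers were present (13 of 18 listed photoreceptor genes and 12 of 13 ganglion cell genes were bright enough to test). Cell markers moved with genotype: 13 of 17 tested lens genes, 4 of 13 photoreceptor genes and 5 of 12 ganglion cell genes were higher. Of 21 tested mitosis and replication genes, 20 were lower. Pigment epithelium genes were mixed: 1 of 6 tested was called lower (Pmel, -0.52, limma adjusted p = 0.0949). Differences in that list ran from -1 (Ttr) to 1.05 (Rlbp1), neither of them called, with a median of -0.28. Summed lens signal was 0.0567% to 0.156% of each wildtype array and 0.437% to 1.12% of each knockout array, and none of the 10 listed red blood cell genes was bright enough to test. The part of these shifts in the members' values was not tested.

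With limma and Benjamini-Hochberg adjustment at 0.10, the rate the submitters used, 1 of the 86 tested members changed: Ndufa4l2 was lower in knockout retinas. None was higher. Across all 10916 tested genes, 2.64% were called lower and 2.03% higher, so the members' shares of 1.16% and 0% were under both. At an unadjusted p under 0.05, 2 members were higher (Cox4i1 and Atp5b) and 2 lower (Ndufa4l2 and Ndufa2), which is 2.33% each way, against 6.64% and 6.78% of all tested genes. The error model described in the labels gave the same counts of 0 higher and 1 lower. In these pooled retinas, a lower signal can come from fewer cells of a type or from less RNA per cell, which cannot be told apart.

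The members' differences lay close to 0. Of the 86, 48 were above 0 (55.8%, against 54.4% of all tested genes) and 38 below (44.2%, against 45.6%). Their median was 0.01, against 0.021 over all tested genes. All but Ndufa4l2 and Ndufa2 were within 0.25 of 0. The median standard error was 0.099 for members and 0.152 for all tested genes. In 77 members (89.5%) the 95% confidence interval of the difference lay within a 1.5-fold change in either direction, which held for 64.5% of all tested genes. For the other 9 (Cox6b2, Cox8c, Ndufa4l2, Ndufaf5, Ndufaf8, Ndufs1, Sdhaf2, Sdhd and Uqcr11) the interval reached beyond 1.5-fold, so for the 8 of them that were not called a change of that size cannot be told from none.

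**Figure D1:**
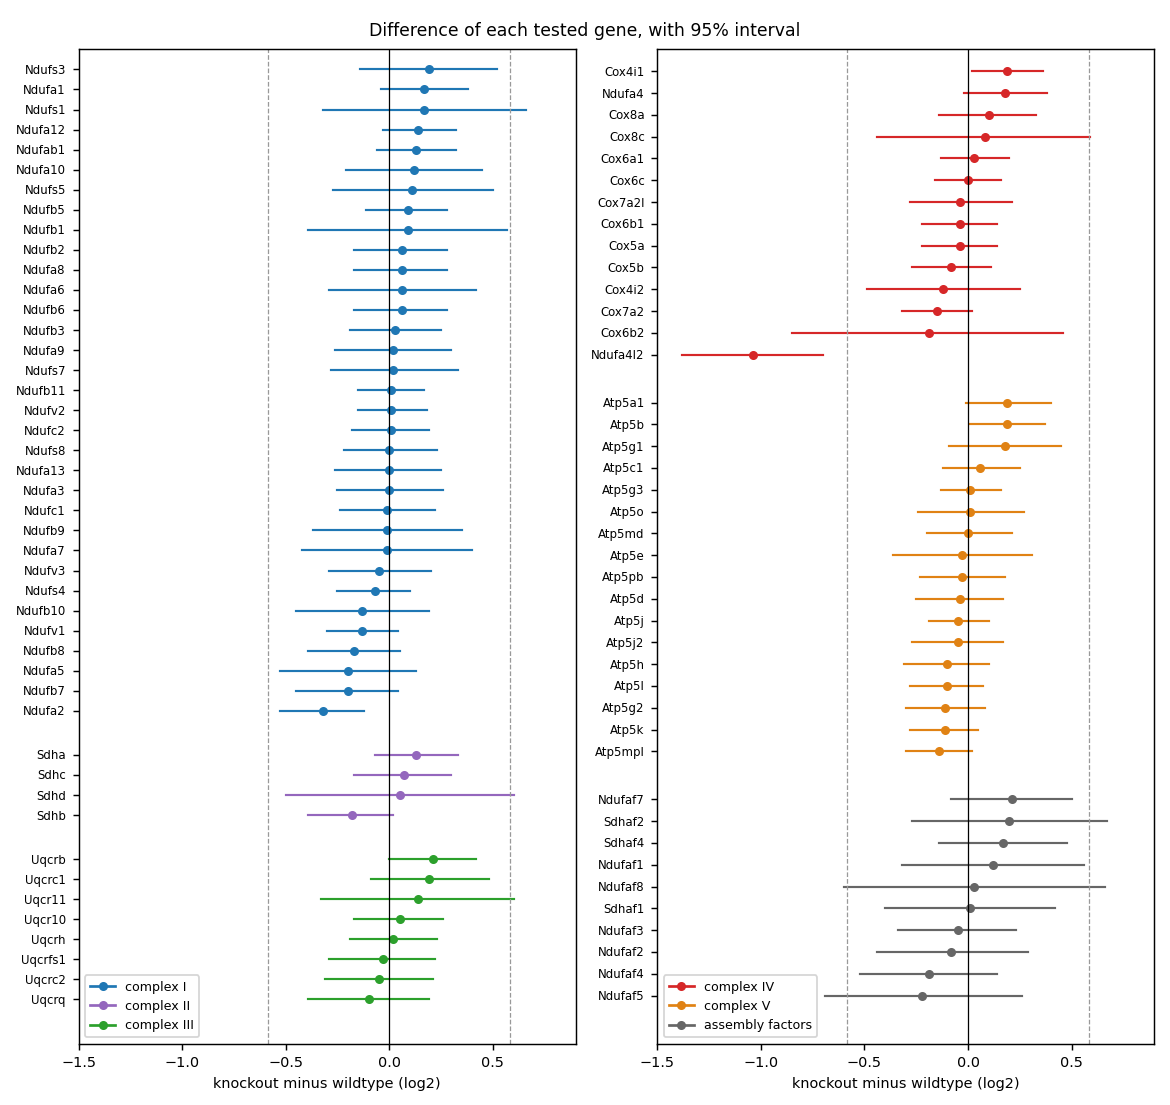
Knockout minus wildtype difference (log2) of each tested member with its 95% confidence interval, 3 pools a genotype, in order within each complex. Ndufa4l2, at -1.04, stands apart, and the other members lie between -0.32 and 0.21.

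**Figure D2:**
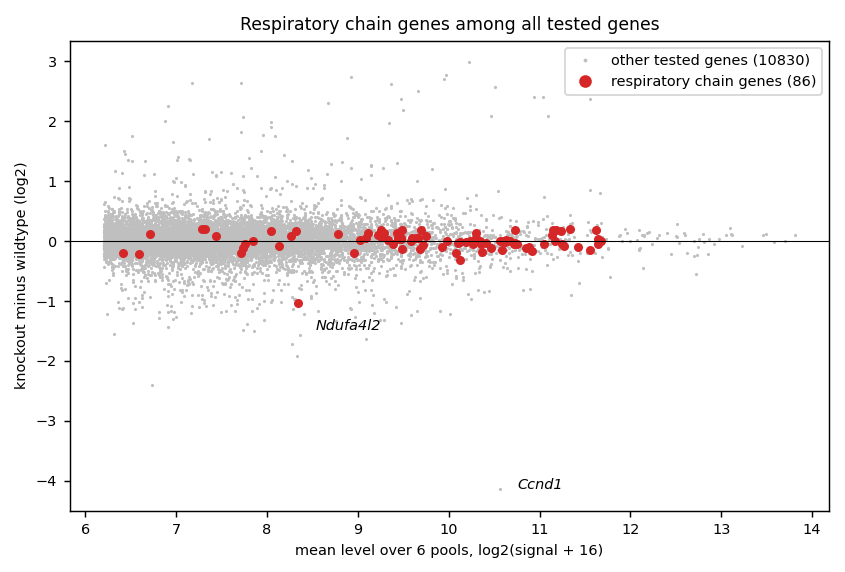
Difference (log2, knockout minus wildtype) against mean level (log2) for all 10916 tested genes, with the members marked. The members, apart from Ndufa4l2, lie within a narrow band around 0.

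The promoters of these genes are known for sites of NRF1, of ETS family factors such as GABP and of YY1, which are thought to let nuclear genes of the respiratory chain be expressed together, so the windows that hold such letters are shown beside the members' differences. RefSeq (GRCm38.p6) gave a promoter for 78 of the 94 members, but none for Ndufa4l2, the called gene, or for Ndufa2. The 250 bases before the gene start were searched on both strands. The letters sought were GCGCA followed by any base and GCGC (NRF1), CCGGAAG (ETS) and ATGGCGG (YY1). NRF1 letters stood in 12 of the 78 members (15.4%), against 9.48% of tested genes and 4.23% of all genes with a window. ETS letters stood in 16 members (20.5%, against 15.5% and 7.83%), and YY1 letters in 6 (7.69%, against 4.67% and 2.58%). The members with both NRF1 and ETS letters were Cox6a1 (chr5:115348959-115349208), Atp5h (chr11:115419920-115420169) and Sdhd (chr9:50603850-50604099). Ndufa4 (chr6:11907451-11907700), the member closest in name to the called gene, held none of the 3 motifs. All 4 lie on the minus strand and are written 5′ to 3′ along the gene with the matched letters in capitals, where CTTCCGG is the ETS motif read on the opposite strand.
Cox6a1: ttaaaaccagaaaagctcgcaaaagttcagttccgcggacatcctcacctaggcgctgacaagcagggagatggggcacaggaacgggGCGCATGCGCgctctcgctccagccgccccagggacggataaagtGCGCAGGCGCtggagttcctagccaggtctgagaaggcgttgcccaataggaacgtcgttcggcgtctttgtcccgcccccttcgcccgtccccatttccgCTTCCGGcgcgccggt
Atp5h: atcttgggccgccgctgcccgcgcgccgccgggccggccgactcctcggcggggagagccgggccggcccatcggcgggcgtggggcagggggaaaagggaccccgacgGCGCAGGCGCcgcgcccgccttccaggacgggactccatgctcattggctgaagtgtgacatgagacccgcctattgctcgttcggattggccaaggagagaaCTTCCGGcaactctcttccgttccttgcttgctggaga
Sdhd: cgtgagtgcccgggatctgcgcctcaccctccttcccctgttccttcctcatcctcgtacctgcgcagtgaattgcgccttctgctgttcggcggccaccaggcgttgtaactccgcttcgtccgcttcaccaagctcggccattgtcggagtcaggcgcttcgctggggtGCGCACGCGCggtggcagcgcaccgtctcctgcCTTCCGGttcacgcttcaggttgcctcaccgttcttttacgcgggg
Ndufa4: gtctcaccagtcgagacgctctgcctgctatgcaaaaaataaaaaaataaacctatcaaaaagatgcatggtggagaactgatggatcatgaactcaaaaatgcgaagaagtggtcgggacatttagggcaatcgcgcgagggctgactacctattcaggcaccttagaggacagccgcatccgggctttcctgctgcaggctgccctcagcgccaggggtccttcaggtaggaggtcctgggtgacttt
These 4 genes differed between genotypes by 0.03, -0.10, 0.05 and 0.18, and none was called. The 26 tested members with any of the 3 motifs had a median difference of 0.03 (from -0.20 to 0.21). The 46 with a window and none of these motifs had a median of 0.01 (from -0.22 to 0.19). Ndufa4l2 and Ndufa2, which had no window, are in neither group. The windows were also searched for TCAAGGTCA (ERR), CCAAT and ACGTG (low-oxygen response), which are not put in capitals. They stood in 1 member (1.28%, against 0.327% of tested genes), 33 members (42.3%, against 40.2%) and 17 members (21.8%, against 25.3%). A match is a description of these letters and not a measured binding site.

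Ndufa4l2 encodes a relative of Ndufa4 that is known to be induced when oxygen is low and to lower the use of oxygen by the respiratory chain. Its level was 8.93, 8.85 and 8.79 in wildtype pools 1, 2 and 3 and 7.95, 8.0 and 7.50 in knockout pools 1, 2 and 3. Every knockout pool lay below every wildtype pool, and knockout pool 3 was the lowest. The mean fell from 8.86 ± 0.07 to 7.82 ± 0.27 (SD, n = 3 pools each), a 2.05-fold fall with a log2 difference of -1.04 (SE 0.147, 95% confidence interval -1.38 to -0.70, limma adjusted p = 0.00994). Of all tested genes, 0.586% were called lower by more than 2-fold. The difference was -0.81 within the arrays with brighter controls and -1.39 within the others, and it was -1.07 without wildtype pool 3. The call ended when pools 1 and 2 of each genotype were averaged, which leaves 2 samples per genotype (difference -1.1, adjusted p = 0.171, against 0.000248 to 0.0584 under the 18 other settings that refit the genes). The gene has 1 probe set here, so no second reading of it was at hand.

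Ndufa4 itself lay at 10.49, 10.65 and 10.76 in wildtype pools and at 10.74, 10.88 and 10.82 in knockout pools. The groups overlapped at wildtype pool 3, and the difference of 0.18 was not called (SE 0.087, adjusted p = 0.440). It was called without wildtype pool 3 (0.25, adjusted p = 0.0866) and with array weights, which count that pool least (0.28, adjusted p = 0.0202). Ndufa4 and Ndufa4l2 therefore had differences of opposite sign, of which the fall alone passed the test over all 6 pools.

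Since Ndufa4l2 responds to low oxygen and is known from vessel-wall cells, 3 lists were set beside it after its value had been seen. Of 23 tested genes of the low-oxygen response, 1 was higher and 2 were lower (2.03% and 2.64% of all tested genes were), with a median difference of -0.06. The called ones were Slc2a1, a glucose carrier (0.54, adjusted p = 0.0461), and the glycolytic enzymes Pgk1 (-0.60, adjusted p = 0.0072) and Tpi1 (-0.53, adjusted p = 0.0849). None of 5 tested genes of vascular mural cells (of 14 listed) and none of 7 tested endothelial genes (of 15 listed) was called, with medians of 0.13 and -0.01. All knockout pools lay above all wildtype pools for the mural gene Rgs5 (0.71, adjusted p = 0.101) and below them for the endothelial gene Cldn5 (-0.79, adjusted p = 0.133). Without wildtype pool 3, 2 low-oxygen genes were called higher and 5 lower, 1 mural gene higher and 1 lower, and 1 endothelial gene lower. Over all genes 8.05% were called higher and 9.8% lower in that setting. Summed mural signal was 0.0125% to 0.0128% of each wildtype array and 0.0128% to 0.0154% of each knockout array. Summed endothelial signal was 0.0303% to 0.0325% in wildtype and 0.0303% to 0.0319% in knockout pools. The part of these cells in the difference of Ndufa4l2 was not tested.

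**Figure D3:**
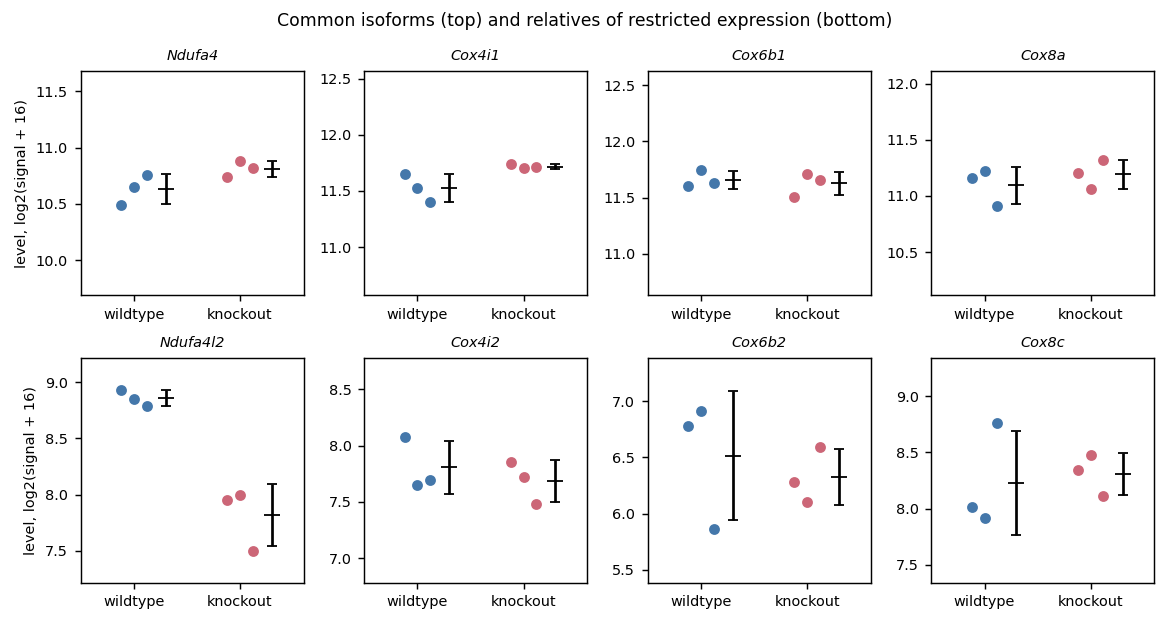
Level (log2 of normalised signal plus 16) in each of the 6 pools for members that have tissue or condition isoforms, with group means. Ndufa4l2 is the only one shown whose difference was called, and levels are not compared between genes because each is read by its own probe set.

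The other complex IV isoforms gave no call. Cox4i1 encodes the widely made form of subunit 4, and its level was 11.65, 11.53 and 11.40 in wildtype and 11.74, 11.70 and 11.71 in knockout pools. All knockout pools lay above all wildtype pools, by 0.19 on average (SE 0.075, 95% confidence interval 0.02 to 0.36), but the adjusted p was 0.313. Cox4i2, the form known from lung and from low-oxygen culture, lay at 8.08, 7.65 and 7.69 in wildtype and at 7.85, 7.72 and 7.48 in knockout pools. Its groups overlapped, with a difference of -0.12 (adjusted p = 0.885).

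Cox6b2, known from testis, was dim and uneven between pools. Its level was 6.78 and 6.91 in wildtype pools 1 and 2, 5.86 in wildtype pool 3, and 6.28, 6.10 and 6.59 in knockout pools. The lowest and the highest of the 6 values were both wildtype, and the difference of -0.19 had an SE of 0.284 (adjusted p = 0.909). Cox8c, a further form of subunit 8, ran from 7.92 to 8.76 in wildtype and from 8.11 to 8.48 in knockout pools, again with both extremes in wildtype. The forms known from heart and skeletal muscle, Cox6a2, Cox7a1 and Cox8b, and the testis form Cox7b2 had mean levels under the limit of 6.21 for testing. Of 16 skeletal and heart muscle markers, 5 were bright enough to test and 0 were called (1 higher without wildtype pool 3, when 8.05% of all genes were). Their summed signal was 0.0164% to 0.0177% of each wildtype array and 0.0196% to 0.0231% of each knockout array, and the part of this in the isoforms' values was not tested.

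The remaining tested complex IV subunits are widely made ones, and Cox7c was too dim to test. Cox5a, Cox5b, Cox6a1, Cox6b1, Cox6c, Cox7a2, Cox7a2l and Cox8a differed by -0.15 (Cox7a2) to 0.10 (Cox8a), and the groups of each overlapped. The 95% intervals of all 8 lay within 1.5-fold. Over the 14 tested complex IV members the median difference was -0.04.

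In complex I, none of the 33 tested subunits was called, and 32 of their intervals lay within 1.5-fold. The median difference was 0.01, from -0.32 (Ndufa2) to 0.19 (Ndufs3). Ndufa2, an accessory subunit of the arm that receives electrons from NADH, lay at 10.28, 10.43 and 10.15 in wildtype and at 9.93, 9.98 and 9.99 in knockout pools. Every knockout pool was below every wildtype pool, by 0.32 on average (log2 difference -0.32, SE 0.089, 95% confidence interval -0.53 to -0.12), and the adjusted p of 0.121 was just past the threshold. When 60% of genes were left out as dim in place of 40%, Ndufa2 was called. The difference of Ndufa2 was -0.20 within the arrays with brighter controls and -0.37 within the others.

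The tested core subunits of complex I, which form the conserved heart of the enzyme, were Ndufv1, Ndufv2, Ndufs1, Ndufs3, Ndufs7 and Ndufs8. Ndufv1, the subunit that binds NADH, was 9.73, 9.81 and 9.71 in wildtype and 9.63, 9.66 and 9.57 in knockout pools. Its groups did not overlap, although the difference of -0.13 was small (SE 0.075, adjusted p = 0.573). The other bright probe sets of Ndufv1 differed by 0.09 and -0.1, so its sign depends on the probe set. Ndufs3 was 9.52, 9.55 and 9.11 in wildtype and 9.75, 9.57 and 9.43 in knockout pools, and Ndufs1, the largest subunit, was 8.16, 8.17 and 7.54 against 7.80, 8.26 and 8.32. In both of these, wildtype pool 3 was the lowest of the 6 values. Their differences of 0.19 and 0.17 (adjusted p = 0.710 and 0.877) were 0.05 and -0.04 without that pool. Ndufs7, Ndufs8 and Ndufv2 differed by 0.02 or less, though other bright probe sets of these genes reached -0.21, 0.2 and -0.15.

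Among the accessory subunits of complex I, Ndufa12 and Ndufab1 had knockout pools that were all above the wildtype pools, with differences of 0.14 and 0.13 (adjusted p = 0.502 and 0.636). Ndufab1, the mitochondrial acyl carrier protein, has a second bright probe set that differed by -0.23, so its sign depends on the probe set. Ndufa5 was 9.15, 9.30 and 8.75 in wildtype and 8.91, 8.78 and 8.90 in knockout pools, a difference of -0.20 (adjusted p = 0.682). Here too wildtype pool 3 was the lowest value, and it lay below the knockout pools while the other wildtype pools lay above them.

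Complex II, succinate dehydrogenase, links the citric acid cycle to the chain and has 4 subunits, none of which was called. Sdha, the flavin subunit, was 9.06, 9.04 and 9.04 in wildtype and 9.09, 9.18 and 9.27 in knockout pools. The knockout pools were all higher, by 0.13 (adjusted p = 0.636), but another bright probe set of Sdha differed by -0.01. Sdhb, which carries the iron-sulphur clusters, went the other way, with 10.45, 10.54 and 10.38 in wildtype and 10.20, 10.20 and 10.42 in knockout pools. Knockout pool 3 lay within the wildtype range, and the difference was -0.18 (adjusted p = 0.439). The membrane anchor Sdhc was 9.33, 9.17 and 9.18 against 9.45, 9.27 and 9.16, a difference of 0.07 with overlapping groups. The other anchor, Sdhd, was 8.99, 8.57 and 9.65 in wildtype pools against 9.24, 9.10 and 9.02 in knockout pools. Its wildtype pools spanned more than its knockout pools, and the SE of its difference of 0.05 was 0.240.

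In complex III, none of the 8 subunits was called, and the median difference was 0.03. Uqcrb, which helps to bind coenzyme Q, lay at 11.21, 11.20 and 11.27 in wildtype and at 11.49, 11.57 and 11.24 in knockout pools. Knockout pools 1 and 2 were above all wildtype pools and knockout pool 3 was among them, giving a difference of 0.21 (adjusted p = 0.385). That difference was 0.26 within the arrays with brighter controls and 0.03 within the others. The core proteins Uqcrc1 and Uqcrc2 differed by 0.19 and -0.05 (adjusted p = 0.635 and 0.954). For Uqcrc1 the wildtype values were 9.80, 9.67 and 9.33 and the knockout values 9.88, 9.74 and 9.76, and its difference was 0.06 without wildtype pool 3. The Rieske iron-sulphur protein, Uqcrfs1, differed by -0.03 and Uqcrq by -0.10.

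In complex V, none of the 17 subunits was called, all 17 intervals lay within 1.5-fold, and the median difference was -0.03. Atp5b encodes the catalytic beta subunit, which was 11.19, 11.02 and 10.96 in wildtype and 11.29, 11.22 and 11.21 in knockout pools. Its groups did not overlap, and the difference of 0.19 (SE 0.078, 95% confidence interval 0.01 to 0.37) had an adjusted p of 0.348. Its partner in the catalytic ring, the alpha subunit Atp5a1, was 11.19, 11.08 and 10.98 against 11.30, 11.14 and 11.39, with the same difference of 0.19 and overlapping groups (adjusted p = 0.413). The other bright probe sets of Atp5a1 reached down to -0.10, so its sign depends on the probe set. The small membrane subunits Atp5k and Atp5mpl gave the lowest values of this complex, -0.11 and -0.14 (adjusted p = 0.625 and 0.467), and the knockout pools of Atp5mpl were all below the wildtype pools. The 3 genes of the rotor ring subunit c, Atp5g1, Atp5g2 and Atp5g3, differed by 0.18, -0.11 and 0.01.

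None of the 10 tested assembly factors was called, with differences from -0.22 (Ndufaf5) to 0.21 (Ndufaf7). Ndufaf7, a methyltransferase that acts on a complex I subunit, had knockout pools that were all higher (adjusted p = 0.580). Sdhaf2, which helps to attach the flavin to Sdha, differed by 0.20 (adjusted p = 0.838), and without wildtype pool 3 by -0.02. Ndufaf8 was 9.06 and 9.15 in wildtype pools 1 and 2 but 10.16 in wildtype pool 3, which lay above all knockout pools (9.31 to 9.72). Only 7 of these 10 intervals lay within 1.5-fold.

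Counting groups of pools that did not overlap, 6 of the 86 members had all knockout pools higher (6.98%; Ndufa12, Ndufab1, Sdha, Cox4i1, Atp5b and Ndufaf7), against 10.5% of all tested genes. All knockout pools were lower in 4 (4.65%; Ndufa2, Ndufv1, Ndufa4l2 and Atp5mpl), against 9.44%. Together these were 10 members (11.6%), against 19.9%, so both directions were under the background.

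Wildtype pool 3 stood apart for these genes, though not for these alone. It gave the lowest of the 6 values in 46 of the 86 members (53.5%), against 33.4% of all tested genes, and the highest in 8 (9.30%), against 25.5%. The median deviation of the members from their own mean over the pools was -0.14 in that pool, against 0.08 and 0.07 in wildtype pools 1 and 2 and -0.01 to 0.01 in the knockout pools. Over all tested genes the median deviation in wildtype pool 3 was -0.025. Some other mitochondrial lists were low in that pool too. The mitochondrial ribosome made up 0.365% of its signal against 0.392% to 0.436% in the other pools. Assembly genes outside the symbol rule made up 0.0945% against 0.103% to 0.110%, and the pyruvate dehydrogenase and citric acid cycle list 0.110% against 0.119% to 0.129%. Other lists were not low there. Biogenesis regulators made up 0.0628% against 0.0564% to 0.0627%, membrane transport genes 0.222% against 0.222% to 0.248%, and Cyc1 with Cycs 0.0304% against 0.0285% to 0.0347%. The summed assembly factors among the members were highest in that pool (0.0377% against 0.0355% to 0.0371%). All members together made up 1.61%, 1.61% and 1.49% of the summed signal in wildtype pools 1, 2 and 3 and 1.57%, 1.57% and 1.56% in knockout pools. Complex I subunits made up 0.518%, 0.514% and 0.460% in wildtype against 0.489% to 0.496% in knockout. The complex II sum was highest in wildtype pool 3 (0.0487% against 0.0437% to 0.0462% in the other pools). Against the mean of wildtype pools 1 and 2, Sdhd was at 0.87 in that pool, but Sdha, Sdhb and Sdhc were at -0.01, -0.12 and -0.07. The ratios of 3′ to 5′ control signal in wildtype pool 3, 1.72 for beta-actin and 1.02 for Gapdh, lay inside the range of the other pools (1.49 to 2.22 and 0.942 to 1.27).

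The members did not all follow this pattern. Against the mean of wildtype pools 1 and 2, wildtype pool 3 was lowest for Cox6b2 (-0.98), Uqcr11 (-0.79), Ndufb1 (-0.74) and Sdhaf2 (-0.67). It was highest for Ndufaf8 (1.05), Sdhd (0.87), Cox8c (0.79) and Ndufa7 (0.67). Ndufa7, for one, was 10.33, 10.46 and 11.07 in wildtype and 10.53 to 10.73 in knockout pools.

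**Figure D4:**
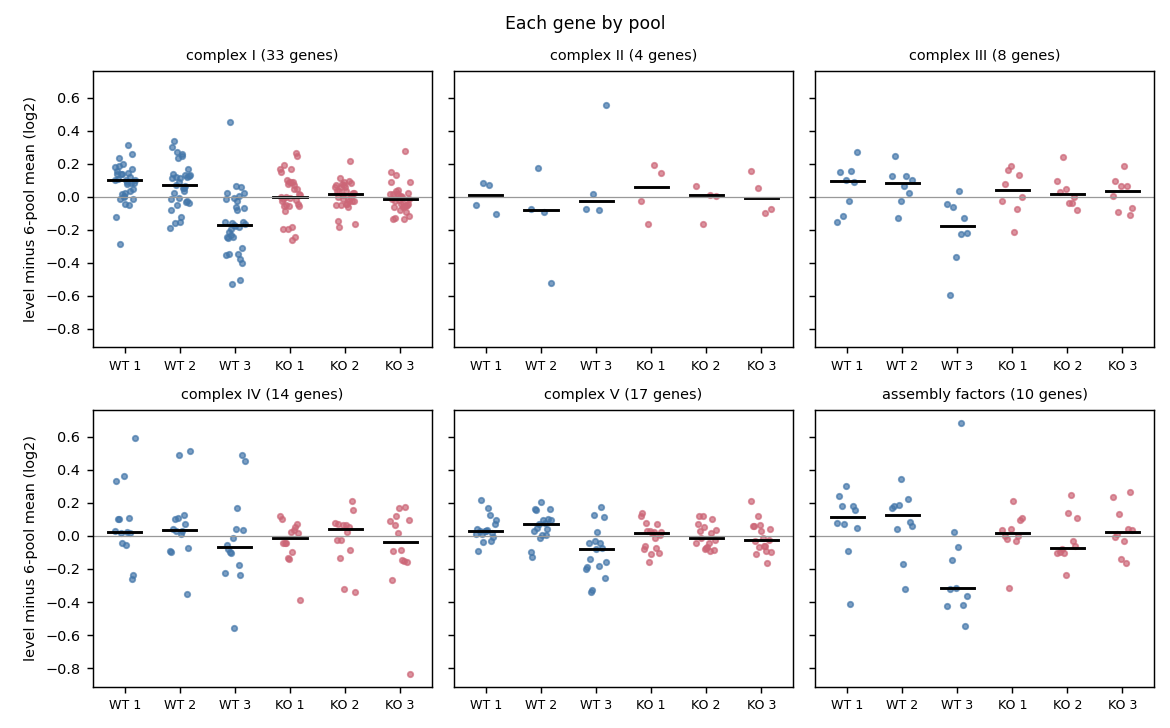
Deviation of each tested member from its own mean over the 6 pools (log2), by pool, in a panel for each complex and for assembly factors. The median of each pool is marked within each panel. In wildtype pool 3 it is -0.17, -0.03, -0.17, -0.07 and -0.08 for complexes I to V and -0.32 for assembly factors. Over all members, which is not drawn, the median of that pool is -0.14, and those of the other pools lie between -0.01 and 0.08.

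Without wildtype pool 3, which leaves 2 wildtype pools that resembled each other closely, more genes passed the test. Over all genes the calls grew from 4.67% to 17.9% (8.05% higher and 9.80% lower). Of 87 members then tested, 11 were called (12.6%): 2 higher (Ndufa4, 0.25, and Ndufaf8, 0.38) and 9 lower. The lower ones were the complex I subunits Ndufa2 (-0.39), Ndufa5 (-0.36), Ndufb8 (-0.26) and Ndufb10 (-0.28), the complex III subunit Uqcrq (-0.24), Cox6b2 (-0.52) and Ndufa4l2 (-1.07), and the assembly factors Ndufaf5 (-0.43) and Ndufaf6 (-0.60). In that setting 60 of the 87 members (69%) were below 0, against 48.5% of all genes, and the members' median was -0.06 against 0.011. The medians without that pool were -0.06 for complex I, 0.09 for complex II, -0.04 for complex III, -0.07 for complex IV, -0.08 for complex V and -0.10 for the 10 assembly factors tested with all pools, which do not include Ndufaf6.

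Within the 2 sets of arrays the members as a whole leaned in opposite directions. The median difference was 0.15 within the arrays with brighter controls, where wildtype pool 3 is the one wildtype array, and -0.08 within the others, where knockout pool 3 is the one knockout array. Over all genes these medians were 0.014 and 0.003. The split was 0.18 and -0.11 for complex I, 0.19 and -0.03 for complex III, 0.06 and -0.05 for complex IV, 0.13 and -0.08 for complex V and 0.25 and -0.01 for assembly factors. The complex II medians went the other way, with -0.04 and 0.07, but within each set its 4 genes were of both signs. With the array set as a block, 1 member was called, as without it, while calls over all genes rose to 9.38%.

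**Figure D5:**
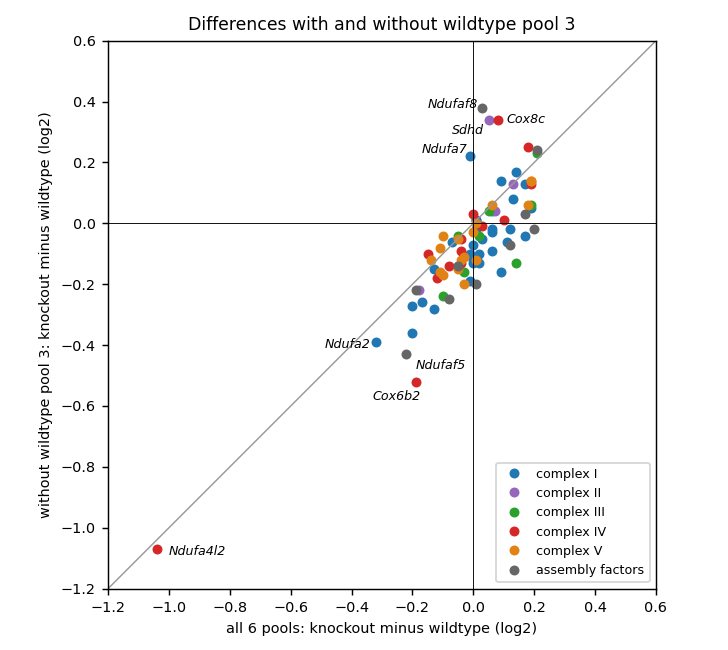
Difference of each member (log2, knockout minus wildtype) with all 6 pools on the x axis and without wildtype pool 3 on the y axis, and the line of equal values. The members' median is 0.01 with all pools and -0.06 without wildtype pool 3, and Ndufa4l2 is near -1 on both axes.

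The members were read by 185 probe sets, of which 151 were bright. Of these, 147 differed by less than 0.25 in either direction, and 1, that of Ndufa4l2, was below -0.5. In 44 members with more than 1 bright probe set, the probe sets gave differences of the same sign in 22 and of both signs in 22. The widest disagreement in sign was in Ndufs4, from -0.33 to 0.11, followed by Ndufab1. Differences of this size are therefore within what the choice of probe set can turn.

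Other mitochondrial genes were counted from lists set up for this purpose. The electron carriers Cyc1 and Cycs, which serve complexes III and IV, differed by -0.13 and -0.11 (adjusted p = 0.726 and 0.662). None of 30 tested assembly genes outside the symbol rule, none of 22 regulators of mitochondrial biogenesis and none of 76 genes of the mitochondrial ribosome was called, with medians of 0.02, -0.04 and -0.01. Without wildtype pool 3, 13 of the ribosomal genes were called lower and 0 higher, with a median of -0.09. In each of the assembly and biogenesis lists, 1 gene was then called higher and 3 lower. Over all genes 8.05% were called higher and 9.8% lower in that setting.

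Over all 6 pools, 4 genes of the other mitochondrial lists were called, all higher (2.03% of all tested genes were). Of 17 tested genes of pyruvate dehydrogenase and the citric acid cycle, 2 were higher and 0 lower, with a median of 0.13. Suclg2, a subunit of succinyl-CoA synthetase, was 7.49, 7.64 and 7.35 in wildtype and 8.39, 8.31 and 8.44 in knockout pools. The groups were far apart, and the difference of 0.89 (1.85-fold, SE 0.118, adjusted p = 0.00756) was close in size to that of Ndufa4l2, with the opposite sign. Pdha1, the catalytic subunit of pyruvate dehydrogenase, was 8.65, 8.65 and 8.56 against 9.07, 8.95 and 8.97 (difference 0.38, adjusted p = 0.0742), a call that was lost in 12 of the alternatives.

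The membrane transport list held carriers and channels of the mitochondrial membranes, protein import genes and chaperones. Of its 17 tested genes, 2 were higher and 0 lower, with a median of 0.08. Slc25a4, which exchanges ADP for ATP across the inner membrane, was 11.01, 10.94 and 10.66 in wildtype and 11.34, 11.26 and 11.28 in knockout pools (difference 0.42, adjusted p = 0.0654). Slc25a3, which carries the phosphate that ATP synthase uses, was 10.98, 10.97 and 11.01 against 11.24, 11.39 and 11.26 (difference 0.31, adjusted p = 0.0518). Neither had overlapping groups, and their calls were lost in 10 and 11 of the alternatives. Slc25a5, another ADP/ATP carrier, differed by -0.04.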

How the data were processed

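Per the labels' protocols, RNA of each pool was amplified once and put on an Affymetrix array as biotin-labelled cRNA. The deposited table holds 1 linear intensity per probe set and array. How probes were summarised and scaled is not given in the sources used here. The labels describe the submitters' own test, a false discovery rate of 0.10 with an error model that averages variances over 200 probe sets.

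Array medians of log2 intensity lay between 5.34 and 5.66, so the deposited values were quantile normalised, floored at 1 and taken to log2(value + 16). Of 45101 probe sets, 34945 had 1 symbol in the platform annotation and were used, 932 had several and 9160 were unnamed; 64 were controls. Each gene was read by its probe set with the highest mean, and the lowest 40% of genes (7277 of 18193) were left out. The other 10916 were fitted together with limma 3.58.1 in R 4.3.3 (lmFit, eBayes with an intensity trend, no covariate, two-sided) and called at a Benjamini-Hochberg adjusted p of 0.10. Intervals are 95%, and 3 arrays a genotype limit the precision. The fit was tested on simulated data. Named genes were Ccnd1, called members, the 2 highest and 2 lowest of each complex, tissue isoforms, members whose probe sets differ in sign and up to 4 called genes of each further list; members whose groups did not overlap or that were called or extreme in relation to wildtype pool 3 were added after their values were seen. The members and lists were chosen with earlier results of these data known, and the low-oxygen, mural and endothelial lists after the value of Ndufa4l2. The 20 alternatives covered scaling, pseudocount, filter, probe set, variance model, threshold, blocks and left-out arrays. Promoters are RefSeq, GRCm38.p6, and figures were drawn with matplotlib 3.10.9.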

Additional observations from a re-analysis of the deposited data

How the results depend on the processing

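Of the 20 alternatives, Ndufa4l2 was lower in each of the 19 that refit the genes, by -1.13 to -0.88, and was called in 18. Ccnd1 stayed called in each. Members called higher were 0 and lower 1, except 7 and 15 with array weights (which gave wildtype pool 3 a weight of 0.15), 2 lower when 60% of genes were left out, and 0 with pools 1 and 2 averaged. Leaving out 1 array gave 0 to 2 higher and 1 to 9 lower, the upper ends without wildtype pool 3. With values as deposited, the median of all genes was 0.13 and that of members 0.16, and the medians became 0.19, 0.25, 0.20, 0.06 and 0.09 for complexes I to V. With arrays centred on their medians, complexes I, II and III had 0.12, 0.18 and 0.13. The complex II median was -0.04 both with a block for the array set and with averaged pools 1 and 2, and -0.05 to 0.09 without 1 array; that of complex IV was -0.07 to 0.01 without 1 array. Ndufa7 turned to 0.24 with array weights (adjusted p = 0.0904). The cause of these shifts was not tested. Of 52 named genes, 17 had a call gained or lost in some alternative, in 54 cases. In 854 other cases no call was made in either setting, and the sign changed in 92 of them, in 32 genes.

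Calls over all genes were 222 higher and 288 lower, of which 43.5% were higher, and 410 and 175 (70.1% higher) with values as deposited. They were 155 and 136 when median-centred, 150 and 231 without the intensity trend, 88 and 119 with the error model of the labels, 1864 and 1749 with array weights, 17 and 25 with pools 1 and 2 averaged, and 596 and 428 when array set was blocked. Without 1 array there were 68 (without knockout pool 2) to 879 higher and 107 (without knockout pool 1) to 1070 lower, the most without wildtype pool 3, and at an adjusted p of 0.05 they were 126 and 195. A replicate block, with the pool number as its term, left 0 members higher and 1 lower, and calls over all genes were 127 and 143. Deviations of same-numbered pools correlated at 0.18, -0.35 and -0.48. Taken from the mean of 3 pools, such deviations depend on each other, so they cannot decide whether the numbers pair the samples.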
